A study of Homo sapiens with 4 samples.

Results

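The genes described here are 49 genes that act in mitosis: kinases and checkpoint proteins, the kinetochore and centromere, the chromosomal passenger complex, the spindle, cytokinesis and chromosome condensation. They were taken from a list of gene symbols drawn up with earlier results of these data known, and each was matched to the array's annotation and represented by its brightest probe set. All 49 had a probe set, among 19775 genes in all, and all 49 were measured, meaning that in 1 pool or both the signal was at or above the 60th percentile of each array. The tested cells were U937, a human myelomonocytic line from a histiocytic lymphoma, carrying the hairpin shPIR#7 against PIR in the lentiviral vector pSICO-R. Pirin, the product of PIR, is a nuclear protein that binds iron, and the series design text states that pirin protein could not be seen by Western blotting in these cells. The control cells were U937 carrying the empty pSICO-R vector, with no control hairpin, so a single hairpin sequence stands for the knock-down. For each condition, RNA of 3 extractions was mixed into 1 pool and hybridised to 2 Affymetrix HG-U133 Plus 2.0 arrays.

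The 2 arrays of a condition repeat the hybridisation of the same RNA, so each pool is 1 sample. The knock-down itself was not replicated, and no test was made. Arrays of the same pool had a median SD of 0.07 (knock-down) and 0.06 (empty vector) in log2 units. The number of arrays limits the precision. Values are the authors' linear signals, and differences are log2 values of knock-down minus empty vector on log2(signal + 18.4), a scale that understates the change of dim genes. PIR itself had 83.4 and 91.5 on the knock-down arrays, against 1813 and 1882 on the empty-vector arrays, a log2 difference of -4.14. The knock-down signals lay below the 60th percentile of their arrays (116.4 and 124.5), so the size is uncertain: the difference was -4.40 with no pseudocount and -3.58 with a pseudocount 4 times larger. Ratios of 3' to 5' probe sets were alike on all 4 arrays, at 0.980 and 1.00 in the knock-down pool and 0.959 and 1.02 in the empty-vector pool for GAPDH, and from 1.17 to 1.18 for ACTB. Of 10 markers of the monocytic line with a probe set, 8 were measured, among them SPI1, PTPRC and LYZ, while MPO and FCGR1A were not. None of 5 T cell and none of 2 erythroid markers was measured, against 1 of 5 epithelial or fibroblast markers (COL1A1) and 3 of 4 B cell markers (CD22, CD79A and PAX5). The B cell markers summed to 762 and 879 in the knock-down pool and 790 and 1016 in the empty-vector pool.

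In a dividing cell, condensins and topoisomerase II compact the duplicated chromosomes, a kinetochore is built on each centromere and captures spindle microtubules, and the spindle checkpoint holds back separase until every kinetochore is attached. Most of the genes involved are transcribed in G2 and mitosis and are kept low in resting and G1 cells by the DREAM complex. Its MuvB core binds the cell cycle homology region (CHR) of their promoters, often near CCAAT boxes bound by NF-Y.

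Mitotic genes were lower in the knock-down pool almost throughout. Of the 49, 47 had a negative difference, and the median was -0.52, or 1.43-fold lower. Over all 10288 measured genes the median was 0.05, and 44.8% were negative. On 45 of the 49 genes (91.8%), both knock-down arrays lay below both empty-vector arrays, which was so for 31.2% of all measured genes, and 2 of the 49 lay above on both arrays, against 40.9% of all measured genes. The median of the 49 was between -0.55 and -0.46 for each of the 4 pairings of a knock-down with an empty-vector array. Between the arrays of the same pool it was 0.02 for the knock-down pool (replicate 1 minus 2) and -0.02 for the empty-vector pool. In pooled RNA of this kind, fewer cells in mitosis and less mitotic RNA per cell cannot be told apart.

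The size of most differences was modest. By a 2-fold rule (a pool difference of at least 1, a difference of at least 0.5 with the same sign for each of the 4 array pairs, and a higher pool that reaches the 60th percentile on both its arrays), 3 of the 49 genes were lower, or 6.12%, against 1.08% of all measured genes. None was higher, against 2.43%. By the same rule at 1.5-fold (0.58, with 0.29 for each pair), 19 were lower, or 38.8%, against 4.93% of all measured genes, and none was higher, against 8.51%. Monocytic markers were uneven. Of the 8 measured, 4 (ANPEP, CD4, PTPRC and CSF1R) were higher by the 1.5-fold rule and none was lower. ELANE (0.41), ITGAL (0.03), LYZ (0.01) and SPI1 (-0.13) met neither rule. The summed signal of the 10 was 68570 and 74800 in the knock-down pool against 58056 and 59418 in the empty-vector pool. Most of it came from ELANE and LYZ. The part of these markers in the mitotic result was not tested.

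**Figure D1:**
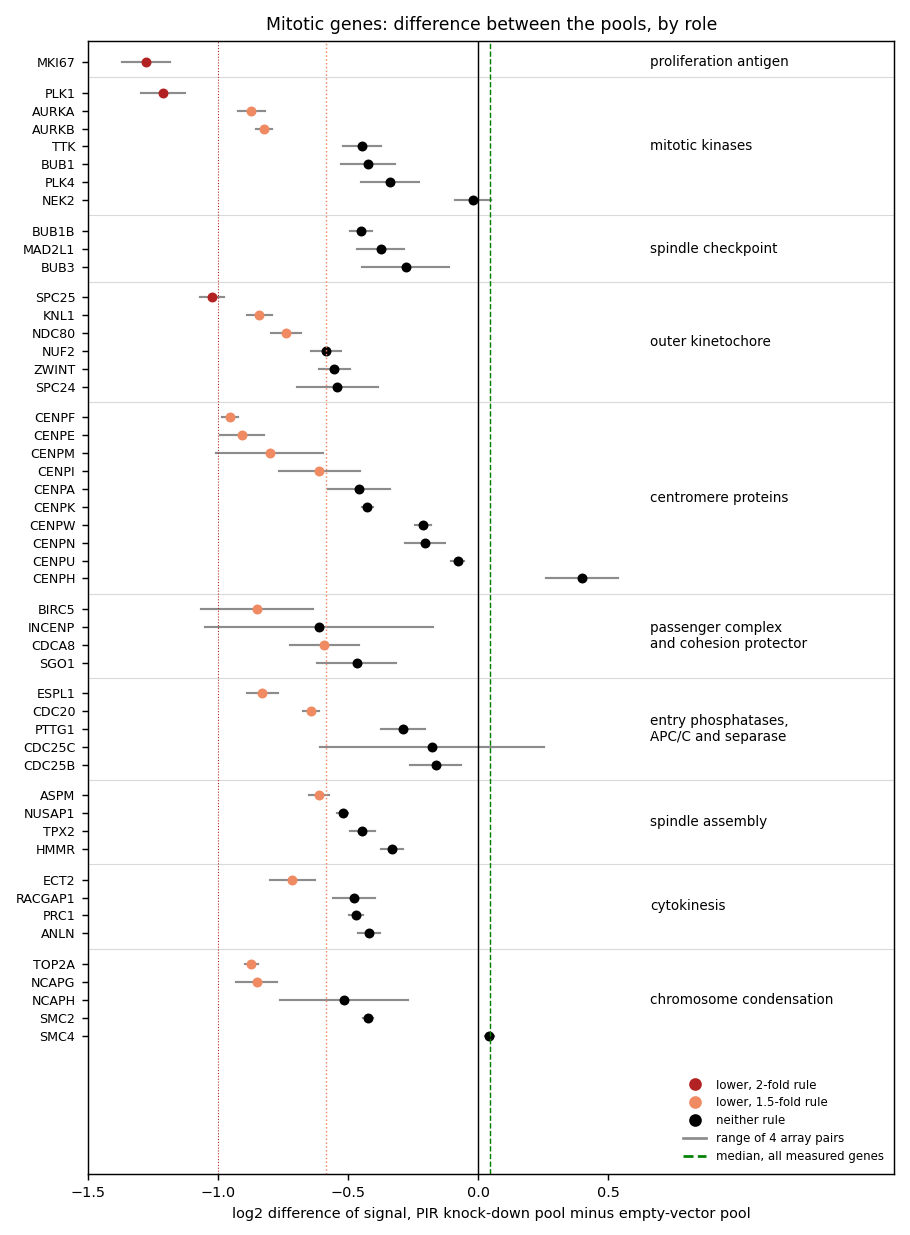
Log2 difference of signal between the PIR knock-down pool and the empty-vector pool (points) for each of the 49 mitotic genes, grouped by role, with the range over the 4 pairs of arrays (grey bars, hybridisation error only). Dotted lines mark 2-fold and 1.5-fold lower and the dashed line the median of all measured genes, 0.05; all points but SMC4 and CENPH lie left of 0.

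The 3 genes at the 2-fold limit were MKI67, PLK1 and SPC25. MKI67, the proliferation antigen Ki-67 that coats mitotic chromosomes, had 2174 and 1938 on the knock-down arrays, against 4966 and 5036 on the empty-vector arrays. PLK1, the kinase of mitotic entry and centrosome maturation, had 1441 and 1295 in the knock-down pool, against 3167 and 3210 in the empty-vector pool. SPC25, a subunit of the NDC80 complex that holds microtubules at the kinetochore, had 2668 and 2774 in the knock-down pool, against 5474 and 5614 in the empty-vector pool. The arrays of the pools were far apart for each of the 3, with differences of -1.28 for MKI67, -1.21 for PLK1 and -1.02 for SPC25, or 2.42-fold, 2.32-fold and 2.03-fold lower. The call of SPC25 lies at the limit: its array pairs ran from -1.07 to -0.98, and it was lost without knock-down replicate 1 and with arrays scaled to a common median, while BIRC5 met the rule without knock-down replicate 2.

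The promoters of these 3 genes and of CENPF hold both a CHR and a CCAAT box, and their differences are the largest among the 49 genes whose listed promoter holds both. The stretches below run from 120 bases before the start of the transcript to 10 bases from it, on the gene's strand, from RefSeq's GRCh38.p14 table. Capitals mark matches on either strand to the CHR (TTTGAA), to its variant TTTAAA and to CCAAT, read ATTGG on the other strand.
MKI67, chr10:128126414-128126543, minus strand: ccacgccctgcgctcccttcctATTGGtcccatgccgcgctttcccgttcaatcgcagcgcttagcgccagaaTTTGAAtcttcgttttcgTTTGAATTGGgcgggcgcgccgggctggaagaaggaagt
PLK1, chr16:23678769-23678898, plus strand: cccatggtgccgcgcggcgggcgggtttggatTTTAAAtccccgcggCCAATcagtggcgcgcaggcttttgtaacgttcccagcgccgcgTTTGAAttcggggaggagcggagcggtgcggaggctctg
SPC25, chr2:168890421-168890550, minus strand: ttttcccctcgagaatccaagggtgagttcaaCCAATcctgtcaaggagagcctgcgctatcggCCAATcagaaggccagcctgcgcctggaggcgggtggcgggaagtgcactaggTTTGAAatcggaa
CENPF, chr1:214603075-214603204, plus strand: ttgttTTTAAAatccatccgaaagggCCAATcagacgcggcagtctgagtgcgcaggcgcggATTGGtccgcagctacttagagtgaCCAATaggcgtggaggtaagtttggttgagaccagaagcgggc
In MKI67 the CHR matches begin 47 and 29 bases before the start, and the second shares a base with a CCAAT box. In PLK1 the CHR begins 29 bases before the start and in SPC25 3 bases before it. The CHR match of CENPF begins 40 bases after the start, beyond the stretch shown, which holds 1 variant and 3 CCAAT boxes.

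Among the mitotic kinases, all 7 had negative differences, with a median of -0.45, and 3 were lower by the 1.5-fold rule. After PLK1 came AURKA, the centrosomal kinase of spindle assembly, with 4125 and 3860 in the knock-down pool against 7345 and 7298 in the empty-vector pool (-0.87). AURKB, the kinase of the passenger complex, had 1368 and 1365 in the knock-down pool against 2480 and 2383 in the empty-vector pool (-0.82). Both pairs of arrays were well separated. TTK, the checkpoint kinase MPS1, BUB1, a checkpoint kinase of the kinetochore, and PLK4, which starts centriole duplication, had smaller differences of -0.45, -0.42 and -0.34. NEK2, which loosens the linker between centrosomes, had 1853 and 1961 in the knock-down pool against 1972 and 1895 in the empty-vector pool. Its arrays overlapped, at a difference of -0.02, and a second probe set also gave -0.02.

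The 3 spindle checkpoint genes were all lower by less than the 1.5-fold rule asks. BUB1B had -0.45, MAD2L1 -0.38 and BUB3 -0.28. In all 3 the knock-down arrays lay below the empty-vector arrays, against 31.2% of all measured genes. MAD2L1 had 6751 and 7411 in the knock-down pool against 9039 and 9327 in the empty-vector pool. BUB1B, MAD2L1 and BUB3 encode the proteins that bind and restrain CDC20, the activator of the anaphase-promoting complex. The brightest BUB3 probe set is of a kind (identifier ending in _x_at) whose probes can match other transcripts, and its array pairs ran from -0.45 to -0.11.

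The outer kinetochore was lower in every measured gene, with a median of -0.66 over 6 genes and 3 of them past the 1.5-fold rule. KNL1, the scaffold that recruits checkpoint proteins, had 1657 and 1555 in the knock-down pool against 2884 and 2898 in the empty-vector pool (-0.84). The NDC80 complex has 4 subunits, all in the list: besides SPC25, NDC80 had -0.74, NUF2 -0.58 and SPC24 -0.54. NDC80 itself had 1903 and 2047 in the knock-down pool against 3296 and 3322 in the empty-vector pool, with no overlap. NUF2 lay just short of the 1.5-fold limit, and ZWINT, which docks the RZZ complex, had -0.55.

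The centromere proteins spread most widely. CENPF, a large kinetochore protein of G2 and mitosis, had 2209 and 2176 in the knock-down pool against 4212 and 4324 in the empty-vector pool (-0.96). CENPE, the kinesin motor that moves chromosomes to the spindle equator, had 637 and 618 in the knock-down pool against 1246 and 1143 in the empty-vector pool (-0.91). CENPA, the histone H3 variant that marks centromeres, had -0.46, from a probe set whose identifier marks shared probes. The 7 genes of the inner kinetochore network that sits on CENPA chromatin had a median of -0.21, against -0.91 for CENPA, CENPE and CENPF, a split chosen after the values were seen. Of the 7, CENPM and CENPI met the 1.5-fold rule. CENPM had 1076 and 1322 in the knock-down pool against 2007 and 2182 in the empty-vector pool (-0.80). CENPI had 689 and 607 in the knock-down pool against 1044 and 952 in the empty-vector pool (-0.61). CENPK had -0.43 and CENPW and CENPN -0.21 each. CENPU had 6875 and 7011 in the knock-down pool against 7276 and 7398 in the empty-vector pool, apart but close (-0.08). CENPH was the gene that went the other way, with 2078 and 2300 in the knock-down pool against 1577 and 1730 in the empty-vector pool. Its arrays did not overlap, at a difference of 0.40, below the 1.5-fold limit, and its only probe set is also of the kind with shared probes.

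**Figure D2:**
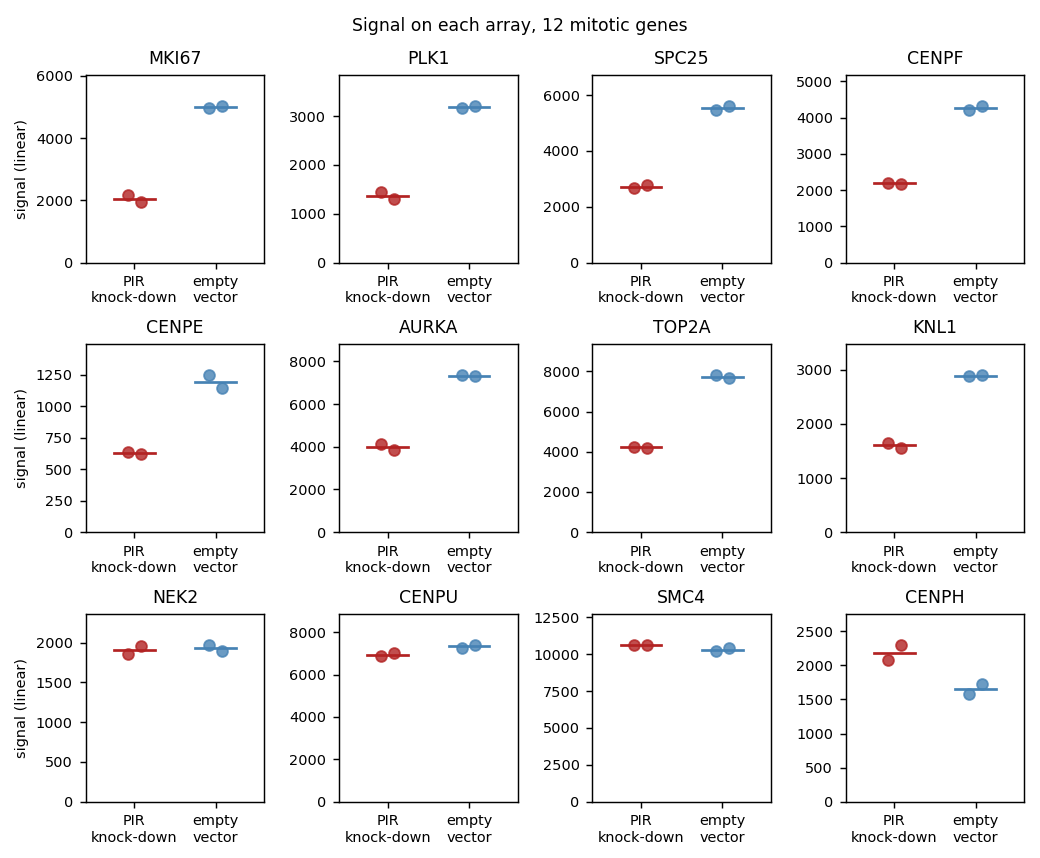
Signal on each array (points, linear scale from 0) and mean of the 2 arrays (lines) for 12 mitotic genes, PIR knock-down left and empty vector right. MKI67 to KNL1 have knock-down arrays far below the empty-vector arrays, NEK2 overlaps, and in SMC4 and CENPH the knock-down arrays are the higher ones.

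The chromosomal passenger complex and the cohesion protector SGO1 had a median of -0.60 over 4 genes. BIRC5, or survivin, which targets the complex to the centromere, had 850 and 1114 in the knock-down pool against 1739 and 1798 in the empty-vector pool (-0.85). The knock-down arrays of BIRC5 lay apart from each other, and its array pairs ran from -1.07 to -0.63. CDCA8, or borealin, had 2089 and 1912 in the knock-down pool against 3169 and 2877 in the empty-vector pool (-0.59) and met the 1.5-fold rule. INCENP, the scaffold of the complex, was dim, with 153 and 121 in the knock-down pool against 271 and 175 in the empty-vector pool. It counted as measured through the empty-vector pool alone. Its difference was -0.61, but its array pairs ran from -1.05 to -0.17, so it did not meet the rule. SGO1, which shields centromeric cohesin, had -0.47.

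Of the 5 genes of mitotic entry and exit, 2 met the 1.5-fold rule. ESPL1, the protease separase that cuts cohesin, had 1416 and 1339 in the knock-down pool against 2430 and 2497 in the empty-vector pool (-0.83). CDC20 had 3282 and 3197 in the knock-down pool against 5029 and 5105 in the empty-vector pool (-0.64). PTTG1, the separase inhibitor securin, had -0.29, and its probe set is of the kind with shared probes. CDC25B and CDC25C, phosphatases that activate CDK1, had -0.16 and -0.18. The arrays of CDC25C overlapped, at 298 and 195 in the knock-down pool against 307 and 247 in the empty-vector pool.

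Spindle assembly genes had a median of -0.48 over 4 genes and cytokinesis genes one of -0.47 over 4. In all 8 the knock-down arrays lay below the empty-vector arrays, against 31.2% of all measured genes. ASPM, a protein of spindle poles, had 2038 and 2058 in the knock-down pool against 3069 and 3206 in the empty-vector pool (-0.61) and met the 1.5-fold rule. A second, dimmer ASPM probe set gave -0.26, and the call was lost under 4 of 13 alternatives. NUSAP1 and TPX2, which nucleate and stabilise spindle microtubules near chromosomes, had -0.52 and -0.45, and HMMR -0.33. In cytokinesis ECT2, the exchange factor that activates RhoA at the cell equator, had 1255 and 1344 in the knock-down pool against 2087 and 2200 in the empty-vector pool (-0.71), the role's gene past the 1.5-fold rule. Its partner RACGAP1 had -0.48, PRC1, which bundles the midzone microtubules, -0.47, and ANLN, the anillin of the contractile ring, -0.42.

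Chromosome condensation genes were uneven, with 4 of 5 lower on both arrays, against 31.2% of all measured genes. TOP2A, the topoisomerase that untangles sister chromatids, had 4247 and 4175 in the knock-down pool against 7796 and 7648 in the empty-vector pool (-0.87). NCAPG, a subunit of condensin I, had 1437 and 1548 in the knock-down pool against 2656 and 2756 in the empty-vector pool (-0.85). NCAPH, the kleisin of condensin I, had -0.52, and the core subunit SMC2 -0.42. SMC4, the partner of SMC2 in both condensins, had 10634 and 10620 in the knock-down pool against 10198 and 10435 in the empty-vector pool. The SMC4 knock-down arrays were the higher ones by 0.04, and its other probe sets gave -0.16 and 0.03.

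Further probe sets gave a second reading of many members. The 49 genes had 103 probe sets, 22 of them with 1 probe set each, and of the 54 that were not the brightest, 39 were measured, from 25 genes. These share the RNA and the arrays of the brightest ones and are no replicates. Of the 39, 36 were negative, with a median of -0.51, 5 met the 2-fold rule as lower and 18 the 1.5-fold rule, and none was higher. Over the brightest probe sets of all measured genes, 1.08% were lower by the 2-fold rule. By the 1.5-fold rule 4.93% were lower and 8.51% higher. The shares over the other probe sets of all genes were not computed, so these counts have no background of their own. The 5 lower by the 2-fold rule were those of AURKA (-1.19), NCAPG (-1.14), BUB3 (-1.05) and MKI67 (-1.14 and -1.10). The AURKA and BUB3 probe sets were dim. Like a further probe set of ASPM and of SGO1, they counted as measured through the empty-vector pool alone. Passing the limit only in the pool with the higher signal favours a lower call. The AURKA probe set had a mean of 66.8 in the knock-down pool against 175 in the empty-vector pool. A brighter AURKA probe set among the 39 had -0.65. That of BUB3 had a mean of 113 in the knock-down pool against 244 in the empty-vector pool. The other measured BUB3 probe sets had -0.29, -0.16 and -0.10. Of the 3 positive readings, 2 were of CENPU, at 0.17 and 0.16, opposite in sign to its brightest probe set, and the other was of SMC4, at 0.03. Among the other readings far from the brightest probe set were those of CENPN (-0.65, against -0.21 on the brightest), ASPM (-0.26, against -0.61), MKI67 (-0.94, against -1.28) and PLK4 (-0.66 and -0.09, against -0.34).

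**Figure D3:**
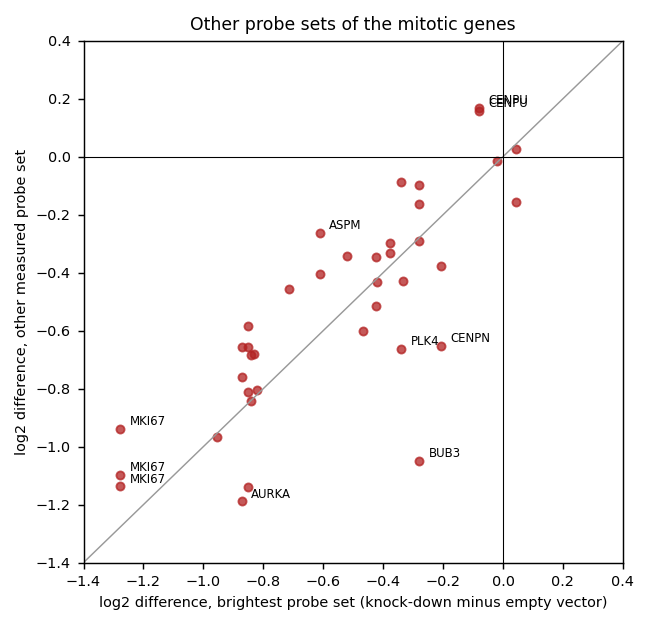
Log2 difference (PIR knock-down minus empty vector) of the brightest probe set of a mitotic gene against that of each other measured probe set of the gene, 39 points from 25 genes, with the line of equality. Most points lie in the lower left; the 2 CENPU points lie above 0 and a dim BUB3 probe set far below its gene's brightest.

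The CHR was found in most of the listed promoters. The table held promoters, from 250 bases before the start to 50 after it, of 40 of the 49 genes, 9 of them with more than 1. AURKA, BIRC5, BUB3, CENPH, CENPM, KNL1, RACGAP1, TPX2 and TTK had none in it. A gene was counted where any of its promoters held the match. A CHR on either strand was present for 27 of the 40 genes (67.5%). This was so for 14.1% of 8513 measured genes and 18.2% of all 27305 genes in the table. CCAAT was present for 31 (77.5%), against 43.4% of measured genes and 39.7% of all genes in the table. Both were present for 19 (47.5%), against 6.06% of measured genes. A CHR that begins no more than 50 bases before the start or after it, a window set after the positions were seen, was present for 23 genes (57.5%), against 4.46% of measured genes. The E2F motif (TTTCGCGC or TTTGGCGC) was present for 2 (5.00%), against 2.63% of measured genes. A match is a description of the letters and not a site.

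Within the 40 genes the motif did not sort the differences cleanly. The 27 genes with a CHR had a median difference of -0.58, with values from -1.28 to 0.04, and the 13 without had -0.43, with values from -0.91 to -0.02, so the ranges overlap almost fully. CENPE, without TTTGAA in this window, holds TTTAAA and had -0.91, and SMC4 holds a CHR 75 bases before the start and had 0.04. For comparison with the 4 promoters above, those of NEK2 and CENPU, chosen after their small differences were seen, hold CCAAT and no CHR in the window. SMC4 lies nearer 0 than CENPU (-0.08), holds a CHR and is not shown. The 4 above were chosen for holding a CHR, so the contrast between the stretches follows from the choice of genes.
NEK2, chr1:211675612-211675741, minus strand: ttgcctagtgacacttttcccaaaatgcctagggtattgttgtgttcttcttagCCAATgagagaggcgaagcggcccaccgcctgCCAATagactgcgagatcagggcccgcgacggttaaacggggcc
CENPU, chr4:184734087-184734216, minus strand: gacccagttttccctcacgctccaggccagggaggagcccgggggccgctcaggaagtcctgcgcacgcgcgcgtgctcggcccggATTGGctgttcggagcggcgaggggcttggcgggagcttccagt
Here too capitals mark CCAAT on either strand.

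**Figure D4:**
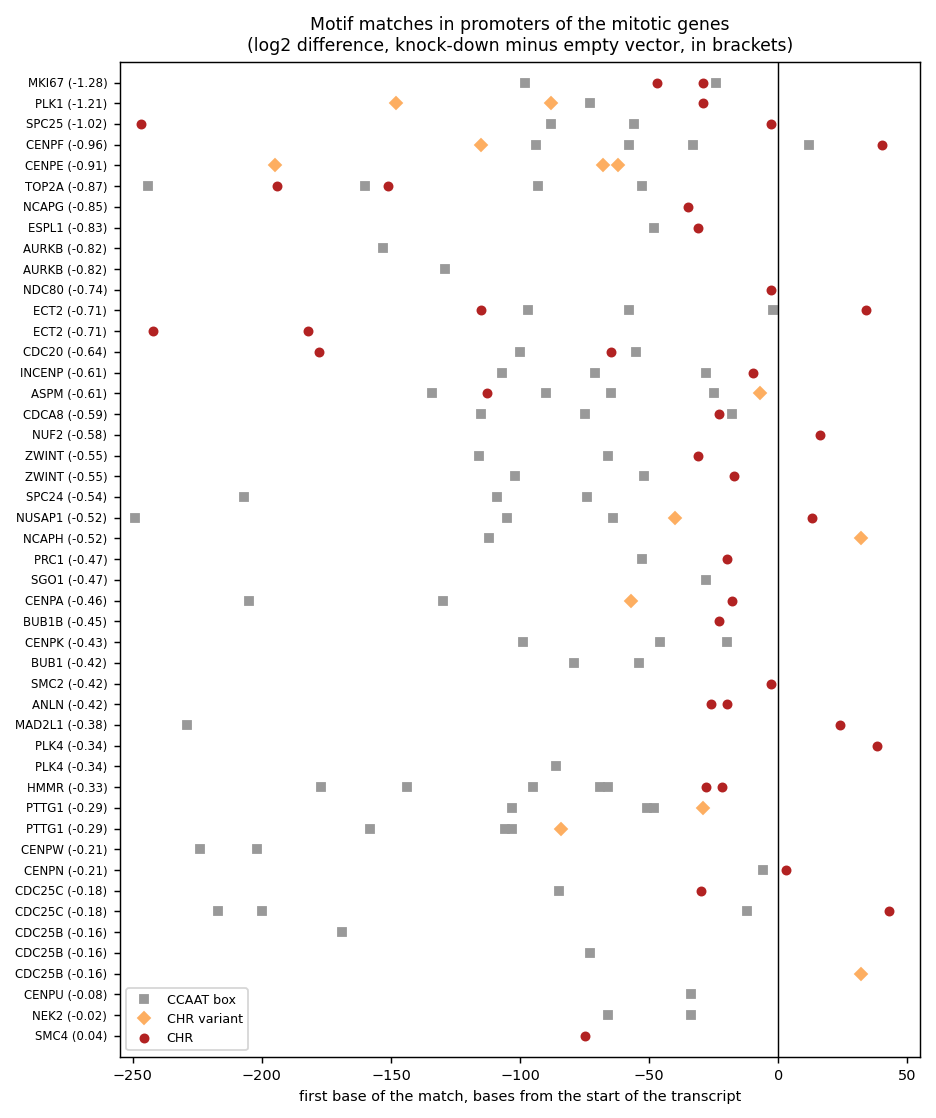
Position of motif matches in 47 promoters of 39 mitotic genes, in bases from the start of the transcript (0), with the genes ordered by their log2 difference between the PIR knock-down and empty-vector pools. Red points (CHR) gather shortly before the start, grey squares (CCAAT) mostly upstream of them, and both occur from the top to the bottom of the order.

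Other genes of the cell cycle were read by the same rules to see how far the pattern extends. In 65 further mitotic genes, of which 63 were measured, the median was -0.51 and 61 were negative. By the 1.5-fold rule 28 were lower (44.4%, against 4.93% of all measured genes). Knock-down arrays lay below the empty-vector arrays in 60 (95.2%, against 31.2%). STIL, a centriole assembly factor, MELK, a kinase of dividing cells, and KIF20B, a kinesin of cytokinesis, met the 2-fold rule, at 2.20-fold, 2.17-fold and 2.10-fold lower, and KIF23, the kinesin partner of RACGAP1, had -0.92. CEP152 and SASS6, both of centriole assembly, had the positive differences, 0.22 and 0.02. CHR matches were present for 33 of the 54 with a listed promoter (61.1%).

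Genes of DNA replication had a median of -0.25 over 47 genes. Of these, 38 were negative, against 44.8% of all measured genes. On 34 (72.3%) the knock-down arrays lay below the empty-vector arrays, against 31.2%, and on 6 (12.8%) above, against 40.9%. By the 1.5-fold rule 4 were lower (8.51%, against 4.93% of all measured genes) and none was higher (against 8.51%). CDC7, the kinase that fires origins, had 976 and 1139 in the knock-down pool against 2113 and 2105 in the empty-vector pool (-0.99), and MCM2, RRM2 and POLE2 had -0.72, -0.70 and -0.67. The middle 50% of the mitotic genes lay from -0.80 to -0.38, and that of the replication genes from -0.38 to -0.05. The replication median was -0.13 with arrays scaled to a common median, against -0.39 for the 49 genes. The difference between the lists was not tested.

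The remaining lists had medians nearer 0 than that of the 49 genes. The subunits and regulators of the anaphase-promoting complex had a median of -0.14 over 15 genes, with FBXO5, its inhibitor EMI1, at -0.64 as the gene past the 1.5-fold rule. Cohesin genes had -0.14 over 13, with CDCA5, or sororin, at -0.63 lower and ESCO1, a cohesin acetyltransferase, at 0.68 higher. Tubulins and the gamma-tubulin complex had -0.05 over 14, but -0.24 with probe sets ending in neither _x_at nor _s_at and -0.12 with quantile normalization. TUBA1A was higher by the 2-fold rule, with 10191 and 10508 in the knock-down pool against 3800 and 3619 in the empty-vector pool (1.48). The listed regulators that act through the motifs above, of MuvB, DREAM, E2F and NF-Y, had a median of -0.10 over 21 genes. Of these LIN37, a MuvB subunit, was higher (0.79), NFYA, the DNA-binding subunit of NF-Y, was lower (-0.63), and no other met the 1.5-fold rule. The transcription factors FOXM1 and MYBL2 were counted among the further mitotic genes and not in this list. FOXM1 had -0.61, lower by the 1.5-fold rule, from a probe set of the kind with shared probes. MYBL2 had -0.47 and did not meet the rule. G1 cyclins and CDK inhibitors had -0.05 over 11, with CDKN2D at -0.98. Each of these lists had at most 1 gene lower and 1 higher by the 1.5-fold rule. The share lower was 4.76% of the regulators, 6.67% of the anaphase-promoting list, 7.69% of cohesin and 9.09% of the G1 list. Over all measured genes it was 4.93%. The share higher was 4.76% of the regulators, 7.69% of cohesin and 7.14% of the tubulins, against 8.51% of all measured genes. The medians of the regulators, of the tubulins and of the G1 list turned positive, at 0.022, 0.073 and 0.075, with arrays scaled to a common median, and that of the regulators also, at 0.023, without knock-down replicate 1.

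**Figure D5:**
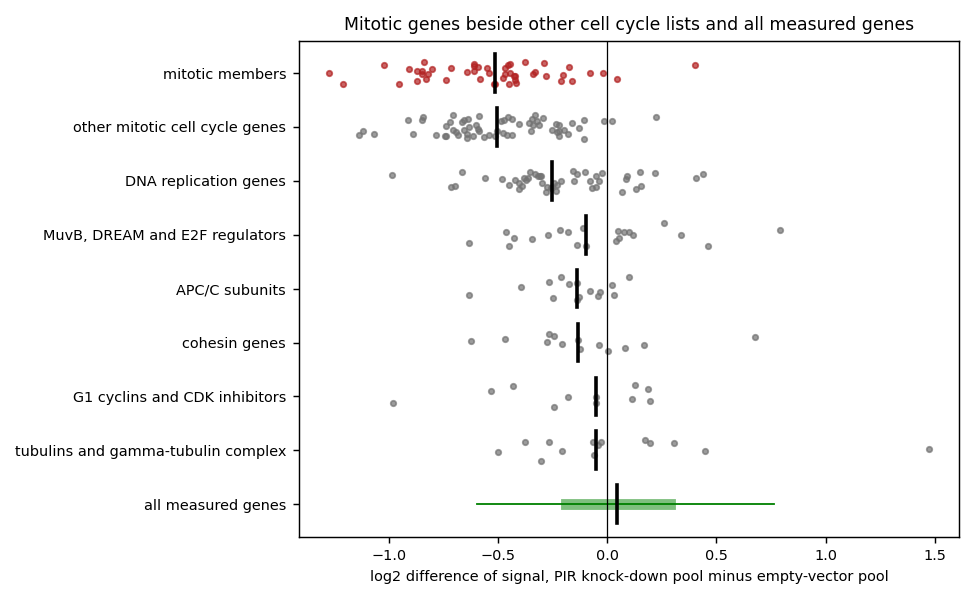
Log2 difference between the PIR knock-down and empty-vector pools for each measured gene (points) of the mitotic genes and of 7 other lists, with each list's median (black bars). For all measured genes the thick green bar spans the middle 50% and the thin line the 5th to 95th percentile; the medians of the mitotic genes (-0.52) and of the further mitotic genes (-0.51) lie far left of it at 0.05.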

How the data were processed

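Total RNA of 3 extractions was pooled per condition and the target hybridised to 2 arrays, per the labels' protocols and the series design text. The values that the authors deposited are linear signal intensities, 1 for each probe set on each array, made with GCOS, per the submitters' processing notes. No other setting of GCOS is given in the sources used here. The mean of the deposited intensities, trimmed by 2% at each end, was 500.07 on every array, so they are scaled to a common level. Detection calls were not used, so signal over background was not tested.

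Here 62 AFFX controls were left out. Of 54613 other probe sets, 41091 were annotated to a single gene symbol, 1801 to several and 11721 to none, and 41037 matched the reference gene table. The pseudocount of 18.4 averages the 25th percentiles of the arrays, and log2(signal + 18.4) was averaged over the arrays of a pool. The 49 genes were set beside 10288 measured genes and 7 other lists, without a test. List genes without a usable probe set were not analysed here. The members and lists were chosen with earlier results of these data known. Named were PIR, every member and, in each other list, up to 4 genes past the 1.5-fold rule, largest first. CEP152, SASS6, FOXM1 and MYBL2 were named after their values were seen. Alternatives changed the pseudocount, brightness limit, scaling, margin, probe set or arrays, and for promoters the motif. Python 3.11.15, pandas 2.3.3, numpy 2.4.6 and matplotlib 3.10.9 were used.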

Additional observations from a re-analysis of the deposited data

How the results depend on the processing

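The lower level of the mitotic genes kept its direction under all 13 alternatives (2 pseudocounts, 2 brightness limits, 2 scalings, no margin over array pairs, 2 other choices of probe set, and each array left out). The median difference was -0.39 with arrays scaled to the same median, -0.47 with all probe sets of a gene averaged and -0.58 with probe sets whose identifier ends in neither _x_at nor _s_at, which left 35 measured members. With single arrays left out it ran from -0.51 to -0.47. Scaling to the same median also raised the median of all measured genes by 0.12. Relative to the median of all measured genes, the members had -0.56 both on the deposited scale and with that scaling. With quantile normalization they had -0.55. The count at 1.5-fold was 15 to 23, and 13 of the 19 genes kept that call wherever they had a value. The call of CENPI and CDCA8 was lost without knock-down replicate 2, without empty-vector replicate 1, with the larger pseudocount and with arrays scaled to the same median, and that of CENPI also with probe sets averaged. That of ASPM was lost without empty-vector replicate 2, with arrays scaled to the same median, with probe sets averaged and with the restricted probe sets. CDC20 lost it with arrays scaled to the same median, and CENPF and ECT2 with the restricted probe sets. The sign of CDC25C, CENPU, NEK2 and SMC4 changed under some alternative, and that of 44 members was negative under all. PIR had -4.40 with no pseudocount, -3.58 with a pseudocount 4 times larger and -4.03 with arrays scaled to the same median. Under that scaling the medians of the regulators, the G1 list and the tubulins were 0.022, 0.075 and 0.073, against -0.10, -0.05 and -0.05. With single arrays left out the median of the regulators ran from -0.12 to 0.023, positive without knock-down replicate 1, -0.049 without knock-down replicate 2 and -0.0028 without empty-vector replicate 1. The G1 list had -0.19 without knock-down replicate 2, -0.10 without knock-down replicate 1 or empty-vector replicate 1 and -0.033 without empty-vector replicate 2. Cohesin had -0.086 without knock-down replicate 1 and -0.20 without empty-vector replicate 1, and the anaphase-promoting complex -0.090 without knock-down replicate 1, against -0.14 for both with all arrays. With arrays scaled to the same median those lists had -0.011 and -0.012. That scaling raised the median of all measured genes by 0.12 as well, so the sign of a list median near 0 depends on the scale. The cause of the reversal without knock-down replicate 1 was not tested.

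No paired analysis was possible because each condition is a single RNA pool, so the replica numbers name repeat hybridisations and the results come from no test. A hairpin effect on sequences other than PIR and differences between cultures cannot be told apart from the knock-down in this design.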
